A study of Mus musculus with 12 samples.

Results

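The genes described here are 7 mouse genes that break down heme and handle its iron: Hmox1, Blvra, Blvrb, Slc40a1, Slc11a1, Fth1 and Ftl1. They were chosen by name, as the entries carrying these symbols in the deposited count tables, and all 7 of 7 were found among 17476 genes listed in either table. All 7 also passed the filter on low counts in both tables.

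The study asked how cryo-thermal therapy (CTT), a tumor treatment that freezes and then heats the tumor, alters gene expression in myeloid cells of the mouse spleen. RNA was sequenced from 12 libraries of wild-type (WT) mice, in 4 groups of 3 that the labels call biological replicates. Control neutrophils came from tumor-bearing mice without CTT, and CTT neutrophils from mice 12 h after it. CTT monocytes came from mice 5 days after CTT, and the anti-Ly6G group from mice at the same time that had also received anti-Ly6G, an antibody that binds a neutrophil surface protein, so that both monocyte groups had received CTT. Neutrophils were selected on beads with PE-labelled anti-Ly6G and monocytes with PE-labelled anti-CCR2. Strain, age, sex, tumor line, purity and the number of mice behind a library were not given in the labels or files used here. If libraries of a group shared mice, the p-values would measure only the spread between these libraries.

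Heme recycling starts when a macrophage takes up an old red blood cell. Heme oxygenase opens the heme ring and releases iron, carbon monoxide and biliverdin, and biliverdin reductase turns biliverdin into bilirubin. The iron is stored inside ferritin, a shell of heavy and light chains, or leaves the cell through ferroportin. In the spleen this work is known above all from red pulp macrophages, while Nramp1, the product of Slc11a1, pumps metal ions out of phagosomes in macrophages and neutrophils.

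Ferritin and ferroportin are also controlled after transcription: when iron is scarce, iron regulatory proteins bind a short hairpin in the 5′ untranslated region, the iron responsive element, and block translation. RNA-seq measures the transcripts and not this step. The elements of the 3 members that hold one are shown because they mark the genes whose protein level can part from the transcript level reported here. The search was for an unpaired C, 5 bases, the loop CAGTGN and 5 bases that pair with the first 5 (G with T allowed), on the sense strand of GENCODE M21 5′ untranslated regions. In the sequences the capitals mark the loop.
Fth1: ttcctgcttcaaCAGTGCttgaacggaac
Ftl1: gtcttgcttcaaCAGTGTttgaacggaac
Slc40a1: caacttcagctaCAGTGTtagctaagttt

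On build GRCm38 these windows lie at chr19:9982732-9982760 on the plus strand (Fth1), chr7:45459779-45459807 on the minus strand (Ftl1) and chr1:45925465-45925493 on the minus strand (Slc40a1), each in the 5′ untranslated region of an exon. The Fth1 and Ftl1 windows were identical at 26 of 29 bases, with T1G, C4T and C18T as the differences, counted from 1 at the 5′ end of the Fth1 window. The Slc40a1 window matched each of them at 13 of 29 bases. Of 20580 genes with an annotated 5′ untranslated region, 31 (0.151%) held such an element. Hmox1, Slc11a1, Blvra and Blvrb held no match in theirs.

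On GRCm38.p6 the genes lie at chr8:75093618-75100593 (Hmox1, Entrez ID 15368), chr2:127070629-127097084 (Blvra, 109778), chr7:27447978-27465981 (Blvrb, 233016), chr1:45908070-45926532 (Slc40a1, 53945), chr1:74375014-74386057 (Slc11a1, 18173), chr19:9980600-9985111 (Fth1, 14319) and chr7:45457944-45459886 (Ftl1, 14325). All are protein coding. The ferritin genes have near-identical pseudogene copies, and Ftl1 overlaps other annotated genes, among them one on the opposite strand. Their counts are therefore uncertain where reads could be assigned to a copy. Of 7 ferritin pseudogenes and ferritin-like genes looked for, only Ftl1-ps2 was listed, at under 1 CPM in every library.

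The libraries held 30942849 to 34935547 counts in the neutrophil table and 31865982 to 35956571 in the monocyte table. The labels were checked against marker genes in CPM, the counts of a gene divided by its library's TMM-scaled total and expressed at a common depth. Ly6g itself lay at 9.52 to 25.5 CPM in the libraries labelled neutrophils and, in those labelled monocytes, at 11.7 to 16.1 CPM after CTT alone and 48.5 to 62.7 CPM with anti-Ly6G, so the marker used for selection was not higher in the former. The 14 neutrophil markers summed to 4235 to 6244 CPM in control neutrophils, 7880 to 13132 CPM in CTT neutrophils, 4914 to 6802 CPM in CTT monocytes and 13747 to 18615 CPM in the anti-Ly6G group. Ccr2 lay at 76.8 to 194 CPM in neutrophils, 190.5 to 264 CPM in CTT monocytes and 439 to 587 CPM in the anti-Ly6G group. The 14 markers of red pulp and other resident macrophages summed to 2367 to 3146 CPM in the libraries labelled neutrophils and to 5705 to 13709 CPM in those labelled monocytes. All libraries also held B cell and erythroid transcripts, and no macrophage or erythroid marker was at 0 in any library. "Neutrophils" and "monocytes" below are the labels' names for cells selected by anti-Ly6G and anti-CCR2. In such mixed bulk samples, fewer cells of a type and less RNA per cell cannot be told apart.

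The ferritin transcripts were among the most abundant of all in every group. Levels are compared between genes in the deposited FPKM, which divide the depth-scaled count by gene length, and each group value is the mean ± SD of 3 libraries. Fth1, the heavy chain, which oxidizes iron for storage, stood at 2582 ± 461 FPKM in control neutrophils and at 2989 ± 157 FPKM in CTT neutrophils. In CTT monocytes it stood at 2108 ± 205 FPKM and in the anti-Ly6G group at 2026 ± 113 FPKM. By mean FPKM this placed Fth1 between rank 7 and rank 12 of all listed genes, and neighbouring groups in this order overlapped. The CTT neutrophil libraries (2813 to 3117 FPKM) lay wholly above both monocyte groups (1908 to 2317 and 1950 to 2156 FPKM).

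Ftl1, the light chain, which helps the mineral core form, was higher in monocytes than in neutrophils, the reverse of Fth1 by group mean. It stood at 3795 ± 552 FPKM in CTT monocytes and 3531 ± 55.6 FPKM in the anti-Ly6G group, against 1952 ± 427 FPKM in control and 1832 ± 247 FPKM in CTT neutrophils. The libraries of both monocyte groups overlapped, as did those of both neutrophil groups, and every monocyte library lay above every neutrophil library. Ftl1 ranked 4 in CTT monocytes and 22 in CTT neutrophils.

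Hmox1, the inducible heme oxygenase, and Slc40a1, the iron exporter ferroportin, were also higher in every monocyte library than in any neutrophil library. Hmox1 stood at 1272 ± 274 and 1054 ± 13.5 FPKM in CTT and anti-Ly6G monocytes, and at 501 ± 55.0 and 357 ± 40.4 FPKM in CTT and control neutrophils. Slc40a1 stood at 561 ± 108 and 389 ± 4.30 FPKM in CTT and anti-Ly6G monocytes, and at 110 ± 3.30 and 99.4 ± 28.0 FPKM in control and CTT neutrophils. The markers of resident macrophages were higher in the monocyte libraries too. The tables differ in antibody, time and treatment, so the gap between them was not tested and its sources cannot be told apart.

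Slc11a1 and Blvra had lower means than the ferritin chains, Hmox1 and Slc40a1 in every group. Slc11a1 stood at 111 ± 26.0 and 86.0 ± 6.85 FPKM in CTT and anti-Ly6G monocytes and at 60.4 ± 18.2 and 44.0 ± 6.11 FPKM in CTT and control neutrophils. Blvra, which reduces the main form of biliverdin, was the least abundant member in all 12 libraries, at 38.2 ± 6.76, 34.0 ± 2.56, 22.3 ± 8.50 and 16.9 ± 3.58 FPKM in CTT monocytes, anti-Ly6G monocytes, control neutrophils and CTT neutrophils, with neighbouring groups overlapping. Both monocyte groups (33.0 to 45.9 and 31.3 to 36.4 FPKM) lay wholly above CTT neutrophils (13.2 to 20.4 FPKM) in Blvra. Blvrb, which reduces biliverdin and flavins and is abundant in red blood cells, stood at 196 ± 161 FPKM in control neutrophils, 149 ± 26.9 FPKM in CTT monocytes, 98.6 ± 8.60 FPKM in the anti-Ly6G group and 70.4 ± 11.6 FPKM in CTT neutrophils. Control neutrophils and CTT monocytes overlapped in Blvrb, and the other neighbours in that order did not.

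The order of the members was the same in all 6 monocyte libraries: Ftl1, Fth1, Hmox1, Slc40a1, Blvrb, Slc11a1 and Blvra, from high to low FPKM. In all 6 neutrophil libraries Fth1 came before Ftl1. Hmox1 followed these chains there except in control replicate 1, where Blvrb did. Together the 7 genes took 0.493% to 0.672% of all counts in neutrophil libraries and 0.842% to 1.16% in monocyte libraries.

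**Figure D1:**
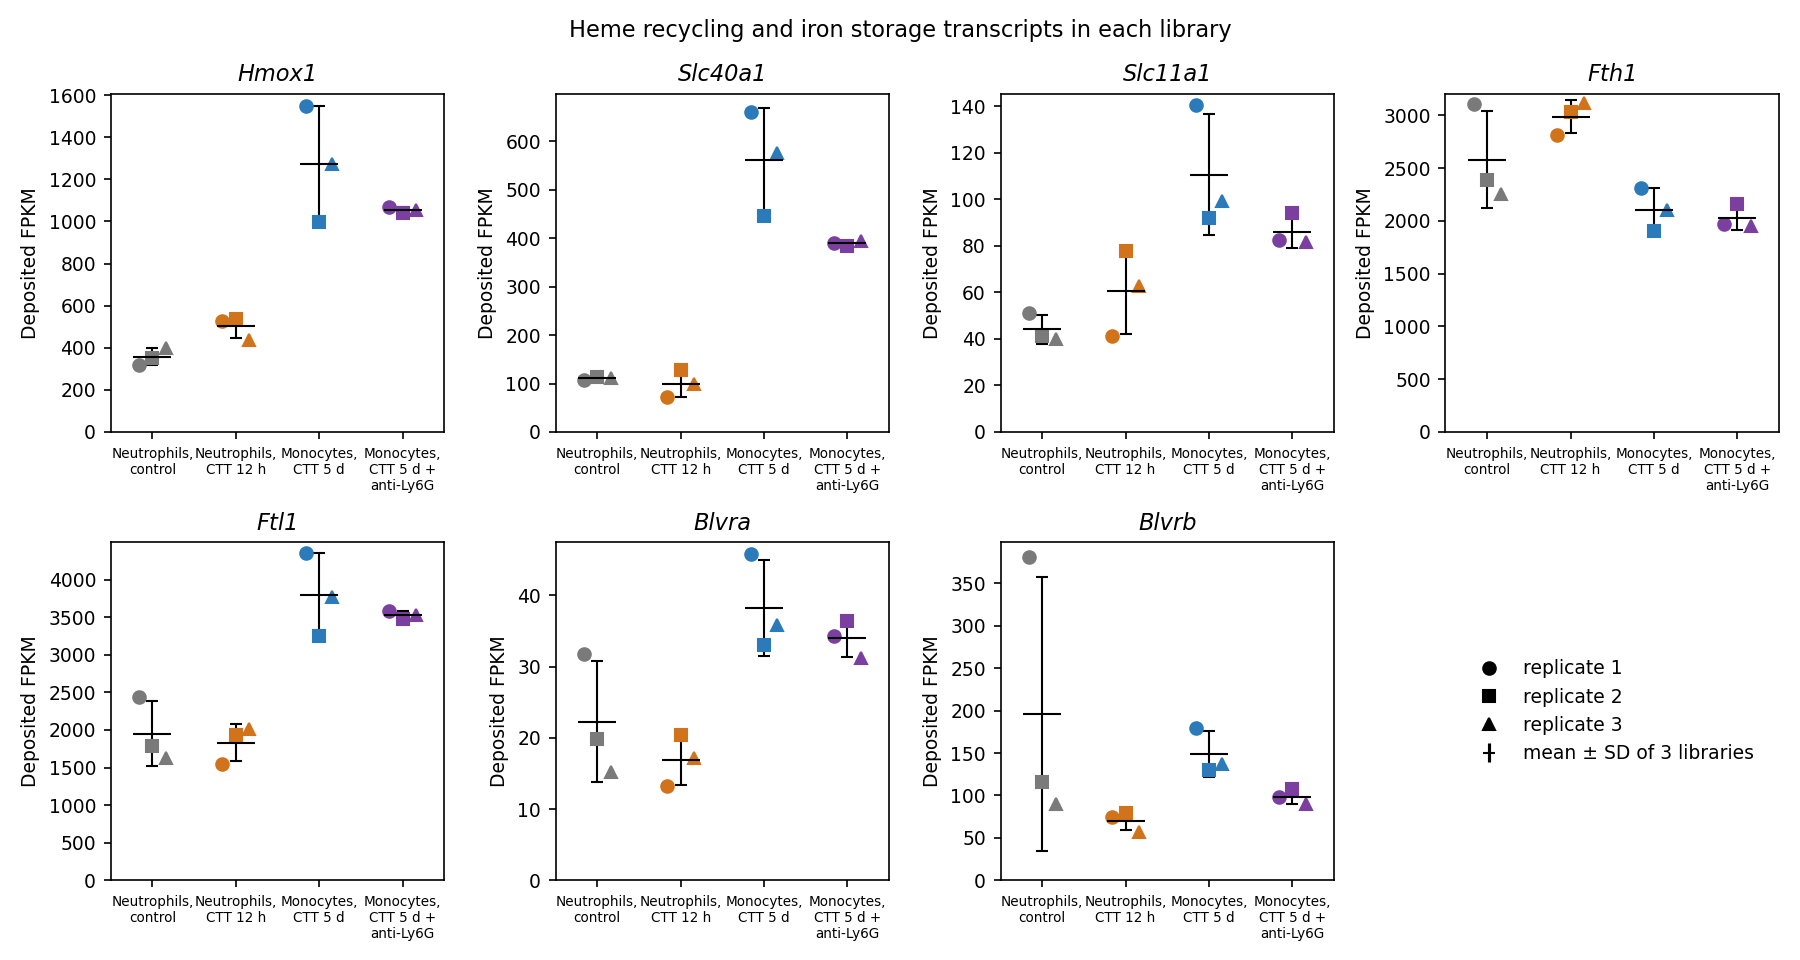
Deposited FPKM of each gene (vertical axis, linear from 0) in the 4 groups (horizontal axis), with 1 point per library and the mean ± SD of 3 libraries. For Hmox1, Slc40a1, Slc11a1 and Ftl1 every monocyte library lies above every neutrophil library, and control neutrophil replicate 1 stands far above the other neutrophil libraries in Blvrb.

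The balance of the ferritin chains differed between the tables in every library. The ratio of Fth1 to Ftl1 FPKM was 1.28, 1.34 and 1.38 in control neutrophils and 1.81, 1.57 and 1.55 in CTT neutrophils. In CTT monocytes it was 0.532, 0.586 and 0.557, and in the anti-Ly6G group 0.550, 0.620 and 0.552. All neutrophil libraries thus had more heavy than light chain transcript per length, and all monocyte libraries less.

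Within neutrophils, every CTT ratio lay above every control ratio, with means of 1.64 ± 0.147 and 1.33 ± 0.0520 (SD, n = 3) and a log2 difference of 0.30. That difference ranged from 0.23 to 0.35 when any 1 library was left out. Within monocytes the groups overlapped, with means of 0.558 ± 0.0272 without and 0.574 ± 0.0401 with anti-Ly6G, a log2 difference of 0.04. No test was run on these ratios.

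**Figure D2:**
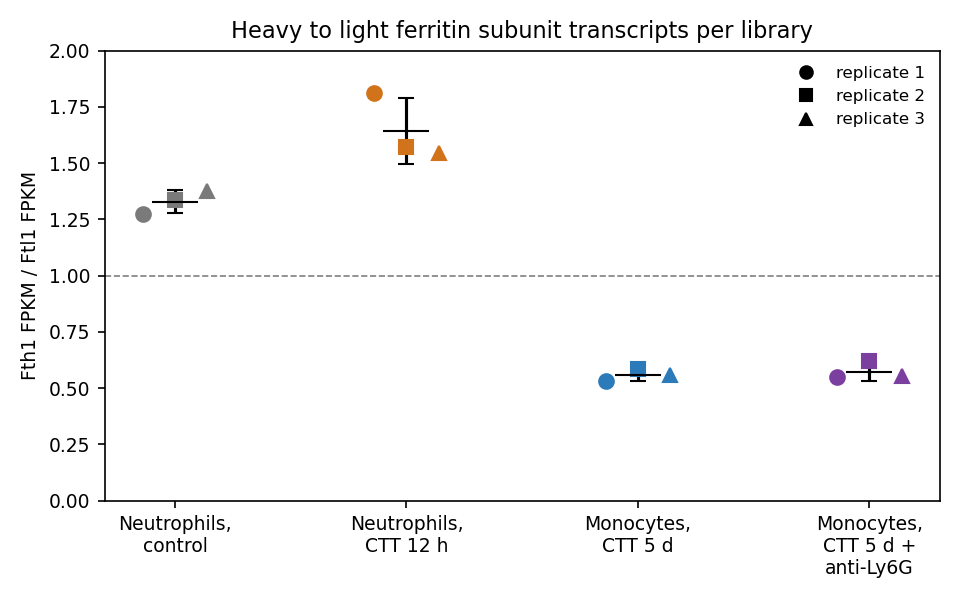
Ratio of Fth1 to Ftl1 FPKM (vertical axis, linear from 0) in the 4 groups (horizontal axis), with 1 point per library, bars for the mean ± SD of 3 libraries and a dashed line at 1. The neutrophil libraries lie between 1.28 and 1.81 and the monocyte libraries between 0.532 and 0.620.

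Neutrophils 12 h after CTT were compared with control neutrophils to see what the therapy changed early. None of the 7 genes passed the threshold, an adjusted p of 0.05 in edgeR's quasi-likelihood test with adjustment over all 13058 tested genes. Across all tested genes 0.567% were called higher and 0 lower. At an unadjusted p under 0.05 there were 2 of 7, Hmox1 and Blvrb, beside 1830 of all tested genes. DESeq2 called 1 of the 7, Hmox1, beside 455 called higher and 107 lower over all tested genes. In limma-voom 0 of the 7 were called. The members' median log2 fold change was −0.03, beside −0.017 over all tested genes. The neutrophil markers were higher after CTT without overlap of their sums, with 14 of 14 log2 fold changes positive and a median of 0.99. In edgeR 2 of 14 were called higher, 4 without control replicate 1 and 0 without any other 1 library, and 9 were called in DESeq2. Their part in the values of the heme and iron genes in this comparison was not tested.

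Hmox1 was the member whose CTT libraries all lay above the controls, as did those of 13.6% of all tested genes (24.7% did not overlap in either direction). It stood at 501, 538 and 616 CPM in control libraries and at 829, 859.8 and 726 CPM after CTT. The means were 552 ± 58.5 and 805 ± 70.0 CPM (SD, n = 3), a log2 fold change of 0.54 (edgeR adjusted p = 0.174, SE 0.13). DESeq2 gave 0.54 with an adjusted p of 0.0169, and in edgeR's fits without 1 library the adjusted p ranged from 0.0688 to 0.532.

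The biliverdin reductases had lower means after CTT, without passing the test. Blvrb stood at 379, 111 and 88.2 CPM in control libraries and at 74.5, 80.1 and 60.1 CPM after CTT. All CTT libraries lay below all controls, as did those of 11.0% of all tested genes, but control replicate 1 alone stood far above the rest. The log2 fold change was −1.43 (edgeR adjusted p = 0.344, SE 0.53), and without that library it was −0.48 (adjusted p = 0.153, SE 0.14). Blvra stood at 52.6, 31.9 and 24.9 CPM in control libraries and at 21.9, 34.4 and 30.2 CPM after CTT, and the groups overlapped. Its log2 fold change was −0.34 (edgeR adjusted p = 0.590, SE 0.30), and 0.03 without control replicate 1.

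The same control library led the erythroid transcripts. The 18 erythroid markers summed to 14560 CPM in control replicate 1, to 2433 and 783 CPM in the other controls, and to 937, 706 and 361 CPM after CTT. All 18 had a negative log2 fold change and edgeR called none of them (16 at an unadjusted p under 0.05; DESeq2 called 5 lower). Their median was −3.08, and −1.31 without control replicate 1. The share of erythroid RNA in the difference of Blvrb was not tested.

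Ferritin and the metal transporters overlapped between the groups. Fth1 stood at 2917, 2173 and 2075 CPM in control libraries and at 2638, 2903 and 3089 CPM after CTT, with a log2 fold change of 0.27 (edgeR adjusted p = 0.449, SE 0.17). Ftl1 stood at 2355, 1676 and 1549.7 CPM and at 1498, 1902 and 2055 CPM, with −0.03 (adjusted p = 0.945, SE 0.20). For both chains control replicate 1 was the highest control, and without it the log2 fold changes were 0.44 (adjusted p = 0.0732) for Fth1 and 0.18 (adjusted p = 0.588) for Ftl1.

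Slc40a1 was nearly equal in the controls, at 342, 352 and 351 CPM, and spread out after CTT, at 229.6, 417 and 335 CPM. Its log2 fold change was −0.09 (edgeR adjusted p = 0.849, SE 0.21). Slc11a1 stood at 152, 119 and 117 CPM in control libraries and at 123, 236 and 197 CPM after CTT, with a log2 fold change of 0.52 (adjusted p = 0.376, SE 0.25). In both genes CTT replicate 1 was the lowest CTT library and lay among or below the controls. The same library had the lowest sum of resident macrophage markers after CTT, 2367 CPM against 3146 and 2793 CPM, while the controls had 2975, 2652 and 2639 CPM. It was also the lowest CTT library in every other marker list but the erythroid one, among them neutrophils (7880 CPM) and classical monocytes (1820 CPM). Single macrophage markers differed: after CTT, Vcam1 was highest in this library (725 CPM against 648 and 548) and C1qa lowest (196 CPM against 321 and 281). The part of any of these markers in the values of Slc40a1 and Slc11a1 was not tested.

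Monocytes taken 5 days after CTT with anti-Ly6G were compared with those taken after CTT alone. The libraries with anti-Ly6G held more neutrophil transcripts than those without: the 14 markers summed to 13747 to 18615 CPM against 4914 to 6802 CPM. Slc40a1 and Blvrb were lower with anti-Ly6G, and the other 5 members did not pass the test. Thus 2 of 7 were called lower and 0 higher in edgeR, beside 5.12% called lower, 10.2% called higher and 15.3% called in either direction of all 13294 tested genes. With upper quartile scaling the calls over all genes split into 1069 higher and 1030 lower, against 1354 and 681 with TMM. All 7 members had a negative log2 fold change, with a median of −0.24 beside −0.0044 over all tested genes. Without CTT replicate 1 the median was −0.068 and 3 of 7 were positive, and without CTT replicate 2 it was −0.40.

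Slc40a1 stood at 2136, 1410.3 and 1821 CPM after CTT alone and at 1277, 1252 and 1270.0 CPM with anti-Ly6G. Every library with anti-Ly6G lay below every library without it, as for 15.4% of all tested genes, while 20.6% lay wholly higher and 36.0% did not overlap in either direction. The libraries with anti-Ly6G were far closer to each other. The means were 1789 ± 364 and 1266 ± 12.9 CPM (SD, n = 3). Slc40a1 fell by 0.50 on the log2 scale (edgeR adjusted p = 0.0321, SE 0.13). The call was lost without CTT replicate 3 (adjusted p = 0.105) and without any 1 of the anti-Ly6G libraries (0.0996, 0.0961 and 0.0861).

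Blvrb stood at 180.4, 128 and 135 CPM after CTT alone and at 99.3, 109 and 90.5 CPM with anti-Ly6G, and the groups did not overlap. The means were 148 ± 28.6 and 99.4 ± 8.98 CPM (SD, n = 3). Blvrb fell by 0.57 on the log2 scale (edgeR adjusted p = 0.0205, SE 0.13). This call was lost without anti-Ly6G replicate 1 (adjusted p = 0.0739) and without replicate 3 (0.0742).

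The other genes of heme breakdown overlapped between the groups. Hmox1 stood at 2446, 1544 and 1973 CPM after CTT alone and at 1714, 1657 and 1664 CPM with anti-Ly6G, with a log2 fold change of −0.24 (edgeR adjusted p = 0.271, SE 0.14). Without CTT replicate 2, the lowest of its group, it was −0.40 with an adjusted p of 0.0322, and without replicate 1 it was −0.07. Blvra stood at 76.6, 53.9 and 58.7 CPM and at 58.0, 61.2 and 52.2 CPM, with −0.14 (adjusted p = 0.488, SE 0.13).

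Neither ferritin chain nor Slc11a1 passed the test. Fth1 stood at 2191, 1765 and 1947 CPM after CTT alone and at 1892, 2052 and 1842 CPM with anti-Ly6G, with a log2 fold change of −0.03 (edgeR adjusted p = 0.853, SE 0.085). Ftl1 stood at 4243, 3101 and 3602 CPM and at 3543, 3407 and 3435 CPM, with −0.08 (adjusted p = 0.659, SE 0.10). Slc11a1 stood at 422, 271 and 293 CPM and at 251, 284 and 245 CPM, with −0.34 (adjusted p = 0.168, SE 0.15). All 3 genes overlapped between the groups.

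CTT replicate 1 was the highest of the 6 monocyte libraries in all 7 genes. Without it the log2 fold changes were −0.35 for Slc40a1 (adjusted p = 0.0218) and −0.40 for Blvrb (adjusted p = 0.00560), both still called, and those of Fth1, Ftl1 and Blvra were 0.05, 0.05 and 0.02.

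**Figure D3:**
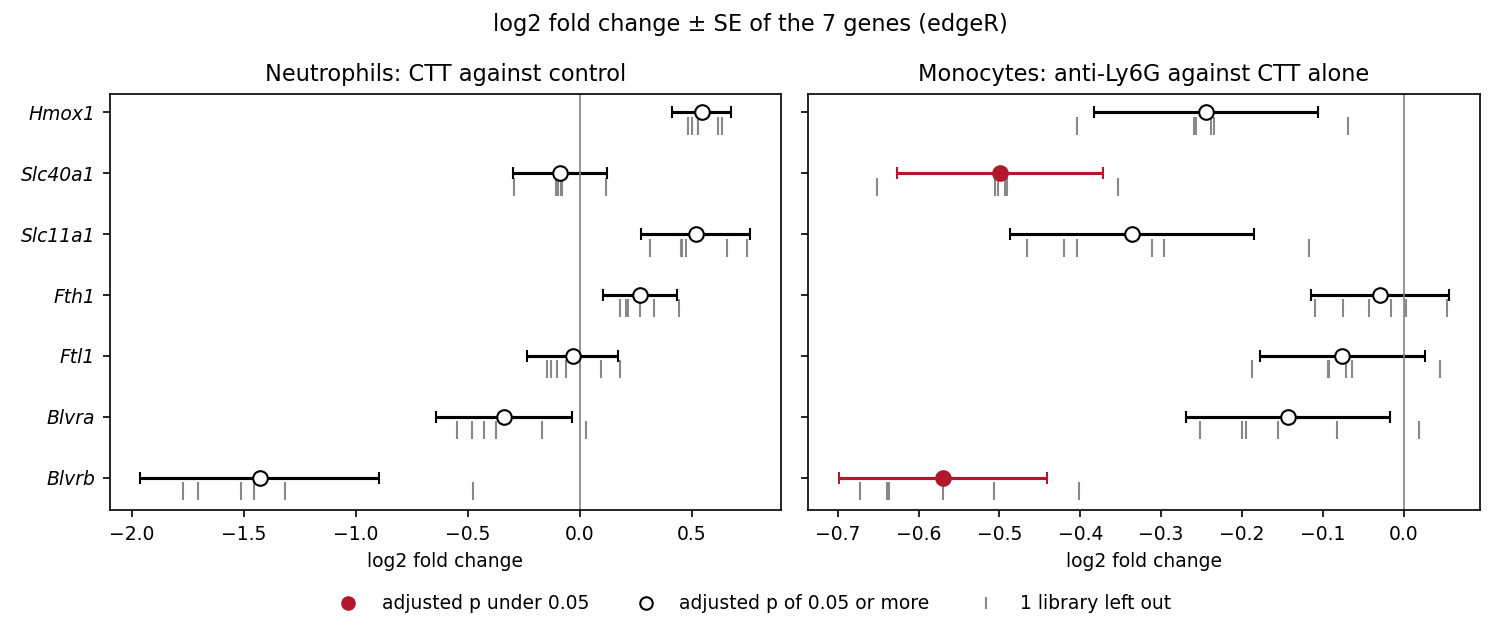
The log2 fold change ± SE (horizontal axis, with its own range in each panel) of the 7 genes (vertical axis) in neutrophils after CTT against control and in monocytes with anti-Ly6G against CTT alone, with grey ticks for fits that leave out 1 library. Filled red points have an edgeR adjusted p under 0.05, and these are Slc40a1 at −0.50 and Blvrb at −0.57 in monocytes.

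CTT replicate 1 also led the markers of resident macrophages, and the erythroid markers too (2294 CPM). It was the highest CTT library in neutrophil (6802 CPM) and classical monocyte markers (5587 CPM), and the lowest in B, T, NK and dendritic cell markers. The 14 macrophage markers, which include Spic, Vcam1, Itgad and Cd163, summed to 13709, 8089 and 8829 CPM after CTT alone and to 6388, 6553 and 5705 CPM with anti-Ly6G. In edgeR 11 of 14 were called lower and 0 higher, with a median log2 fold change of −0.73. Leaving out 1 anti-Ly6G library reduced that count to 3 or 4 of 14, and without CTT replicate 1 the median was −0.47. Of the neutrophil markers 13 of 14 were called higher, with a median of 1.70, and of the classical monocyte markers 6 of 8 were called higher and 1 lower, with a median of 1.03. The classical monocyte sums nevertheless overlapped, at 3488 to 5587 CPM after CTT alone and 4844 to 5809 CPM with anti-Ly6G. Nonclassical monocyte markers gave 4 calls higher and 3 lower of 7. Of 18 erythroid markers 3 were called lower in edgeR, and 12 with the replicate number as a block. All 18 had a negative log2 fold change, with a median of −0.59. The erythroid sums did not overlap, at 1427 to 2294 CPM after CTT alone and 810 to 1360 CPM with anti-Ly6G. All 8 B cell markers had a negative log2 fold change, with a median of −0.47, and 2 were called lower in edgeR and 7 in DESeq2. T cell markers gave 3 calls higher and 1 lower of 9, and megakaryocyte and platelet markers 1 higher of 7. None of 6 NK cell and 7 dendritic cell markers was called. The part of each of these cell types in the calls on Slc40a1 and Blvrb was not tested.

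**Figure D4:**
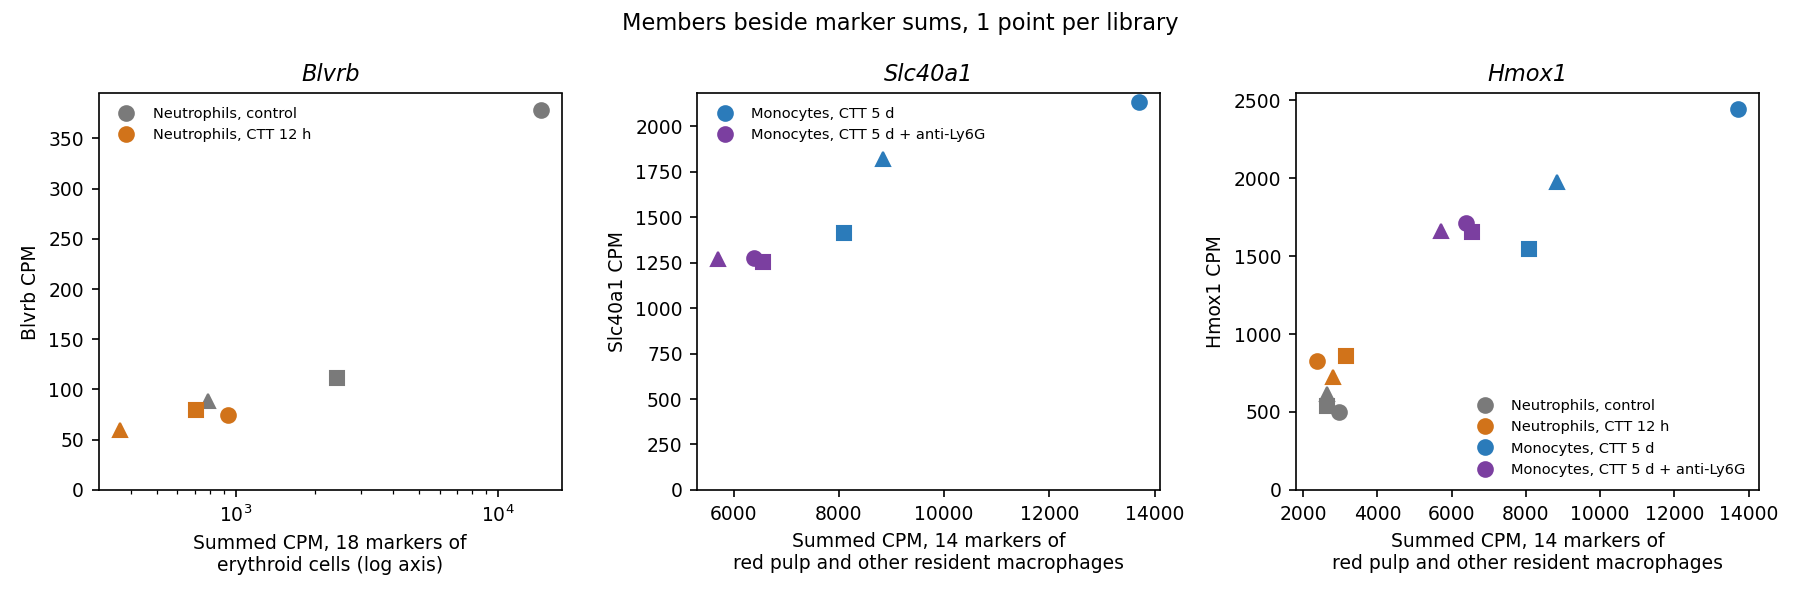
CPM of Blvrb, Slc40a1 and Hmox1 (vertical axes, linear from 0) against the summed CPM of marker genes in the same library (horizontal axes, log for the erythroid sum), with 1 point per library. Control neutrophil replicate 1 is highest in both Blvrb (379 CPM) and erythroid markers (14560 CPM), and CTT monocyte replicate 1 in Slc40a1 (2136 CPM), Hmox1 (2446 CPM) and macrophage markers (13709 CPM).

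Other genes of heme and iron handling were counted in lists drawn up by function. In neutrophils after CTT, 1 of their tested genes passed the threshold, Slc7a11, the cystine transporter that feeds glutathione synthesis and a target of the stress factor NRF2. Slc7a11 stood at 6.87, 5.85 and 6.90 CPM in control libraries and at 20.2, 22.6 and 35.1 CPM after CTT. It rose by 1.99 on the log2 scale (edgeR adjusted p = 0.0299, SE 0.24), and the groups did not overlap. The call held without control replicate 1 (adjusted p = 0.0113) and was lost without any other 1 library (adjusted p 0.0924 to 0.135). It was the only call among 9 other NRF2 targets, whose median was −0.14.

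Heme capture had 0 of 7 called in neutrophils (median 0.11), and its smallest p belonged to Hp and Cd163. Hp, the haptoglobin that binds free hemoglobin, had a log2 fold change of 1.03 (edgeR adjusted p = 0.0558, SE 0.16), and Cd163, the receptor for that complex, 0.32 (adjusted p = 0.350). Iron uptake and transport had 0 of 13 called (median −0.05), led by Lcn2, which binds siderophores, at 1.20 (adjusted p = 0.179) and Steap3, an erythroid ferrireductase, at −2.35 (adjusted p = 0.334).

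Ferritin handling had 0 of 4 called in neutrophils (median −0.38), with Ncoa4, the receptor for ferritin degradation, at −0.45 and Cp, the ferroxidase ceruloplasmin, at −0.60. Regulators had 0 of 10 called (median 0.30), with Mafk, a partner of BACH1 and NRF2, at 0.73 (edgeR adjusted p = 0.0795) and Fbxl5, which targets an iron regulatory protein for degradation, at 0.87 (adjusted p = 0.0814). Heme synthesis had 0 of 13 called. Its median was −1.92, and −0.48 without control replicate 1. Alas2, the erythroid first enzyme of that pathway, stood at 454, 74.1 and 23.7 CPM in control libraries and at 21.9, 19.5 and 11.7 CPM after CTT, and Alas1, its form in other tissues, had a log2 fold change of 0.49 (adjusted p = 0.197). Without control replicate 1, Hp, Maff, Mafk, Fbxl5, Slc7a11 and Gsr were called higher; Maff and Gsr are named after their values were seen. Of the 56 tested genes of these lists 27 had an unadjusted p under 0.05, beside 1830 of all 13058, and 10 of the 27 were heme synthesis genes. Among them DESeq2 called Hp, Lcn2, Maff, Mafk, Fbxl5, Alas1, Slc7a11 and Gsr higher, and Alas2 and Uros lower.

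In monocytes with anti-Ly6G 4 of 10 regulators were called higher and 1 lower, with a median of 0.07. Bach1, the heme-sensing repressor of Hmox1 and the ferritin genes, stood at 94.6, 86.9 and 94.7 CPM after CTT alone and at 147, 155 and 137 CPM with anti-Ly6G. It rose by 0.67 on the log2 scale (edgeR adjusted p = 0.000583, SE 0.069), with no overlap. Nfe2l2, which encodes NRF2, an activator of the same genes, rose by 0.38 (adjusted p = 0.00498). Fbxl5 rose by 0.55 (adjusted p = 0.00231) and Mafg, a further partner of both factors, by 0.39 (adjusted p = 0.00588). Spic, which drives the red pulp macrophage program including Slc40a1, stood at 313, 205 and 228 CPM after CTT alone and at 164, 173 and 159.7 CPM with anti-Ly6G, and it fell by 0.59 (adjusted p = 0.0238). The call on Spic was lost without CTT replicate 3 (adjusted p = 0.0513) and without any 1 anti-Ly6G library (0.0636 to 0.0854).

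Iron uptake and transport gave 3 calls higher and 1 lower of 13 in monocytes, with a median of −0.16. Lcn2 and Ltf, proteins of neutrophil granules that are also on the neutrophil marker list, rose by 1.95 (edgeR adjusted p = 0.00112, SE 0.23) and by 1.74 (adjusted p = 0.00539, SE 0.29). Steap4, a metalloreductase, rose by 1.40 (adjusted p = 0.00219). Trf, the iron carrier transferrin, fell by 0.84 on the log2 scale (adjusted p = 0.0114).

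Heme capture gave 2 calls higher and 1 lower of 7 in monocytes, with a median of 0.12. Hp rose by 1.55 on the log2 scale (edgeR adjusted p = 0.000169, SE 0.12) and Flvcr1, described as a heme exporter, by 0.27 (adjusted p = 0.0322). Cd163, which is also on the macrophage marker list, fell by 0.98 (adjusted p = 0.00883). Ferritin handling gave 2 calls lower of 4, with Cp falling by 0.71 (adjusted p = 0.0281) and Ncoa4 by 0.29 (adjusted p = 0.0399), and a median of −0.15. Cp and Ncoa4 missed the threshold without CTT replicate 3 (0.105 and 0.0751) and without any 1 anti-Ly6G library (0.0659 to 0.128), and Flvcr1 without any 1 library (0.0703 to 0.128) other than CTT replicate 1.

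Heme synthesis gave 1 call of 13 in monocytes: Alas1 rose by 1.00 on the log2 scale (edgeR adjusted p = 0.000428, SE 0.095), while the list's median was −0.17. Of 9 other NRF2 targets 3 were called higher and 0 lower, with a median of 0.31. These were G6pdx, which supplies NADPH, at 1.21 (adjusted p = 0.000857), the glutathione reductase Gsr at 0.93 (adjusted p = 0.000341) and the thioredoxin reductase Txnrd1 at 0.26 (adjusted p = 0.0248). Txnrd1 missed the threshold without CTT replicate 2 (0.0816) and without any 1 anti-Ly6G library (0.0672 to 0.0814). The other 13 genes called in these lists were called in all 6 fits that leave out 1 library.

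**Figure D5:**
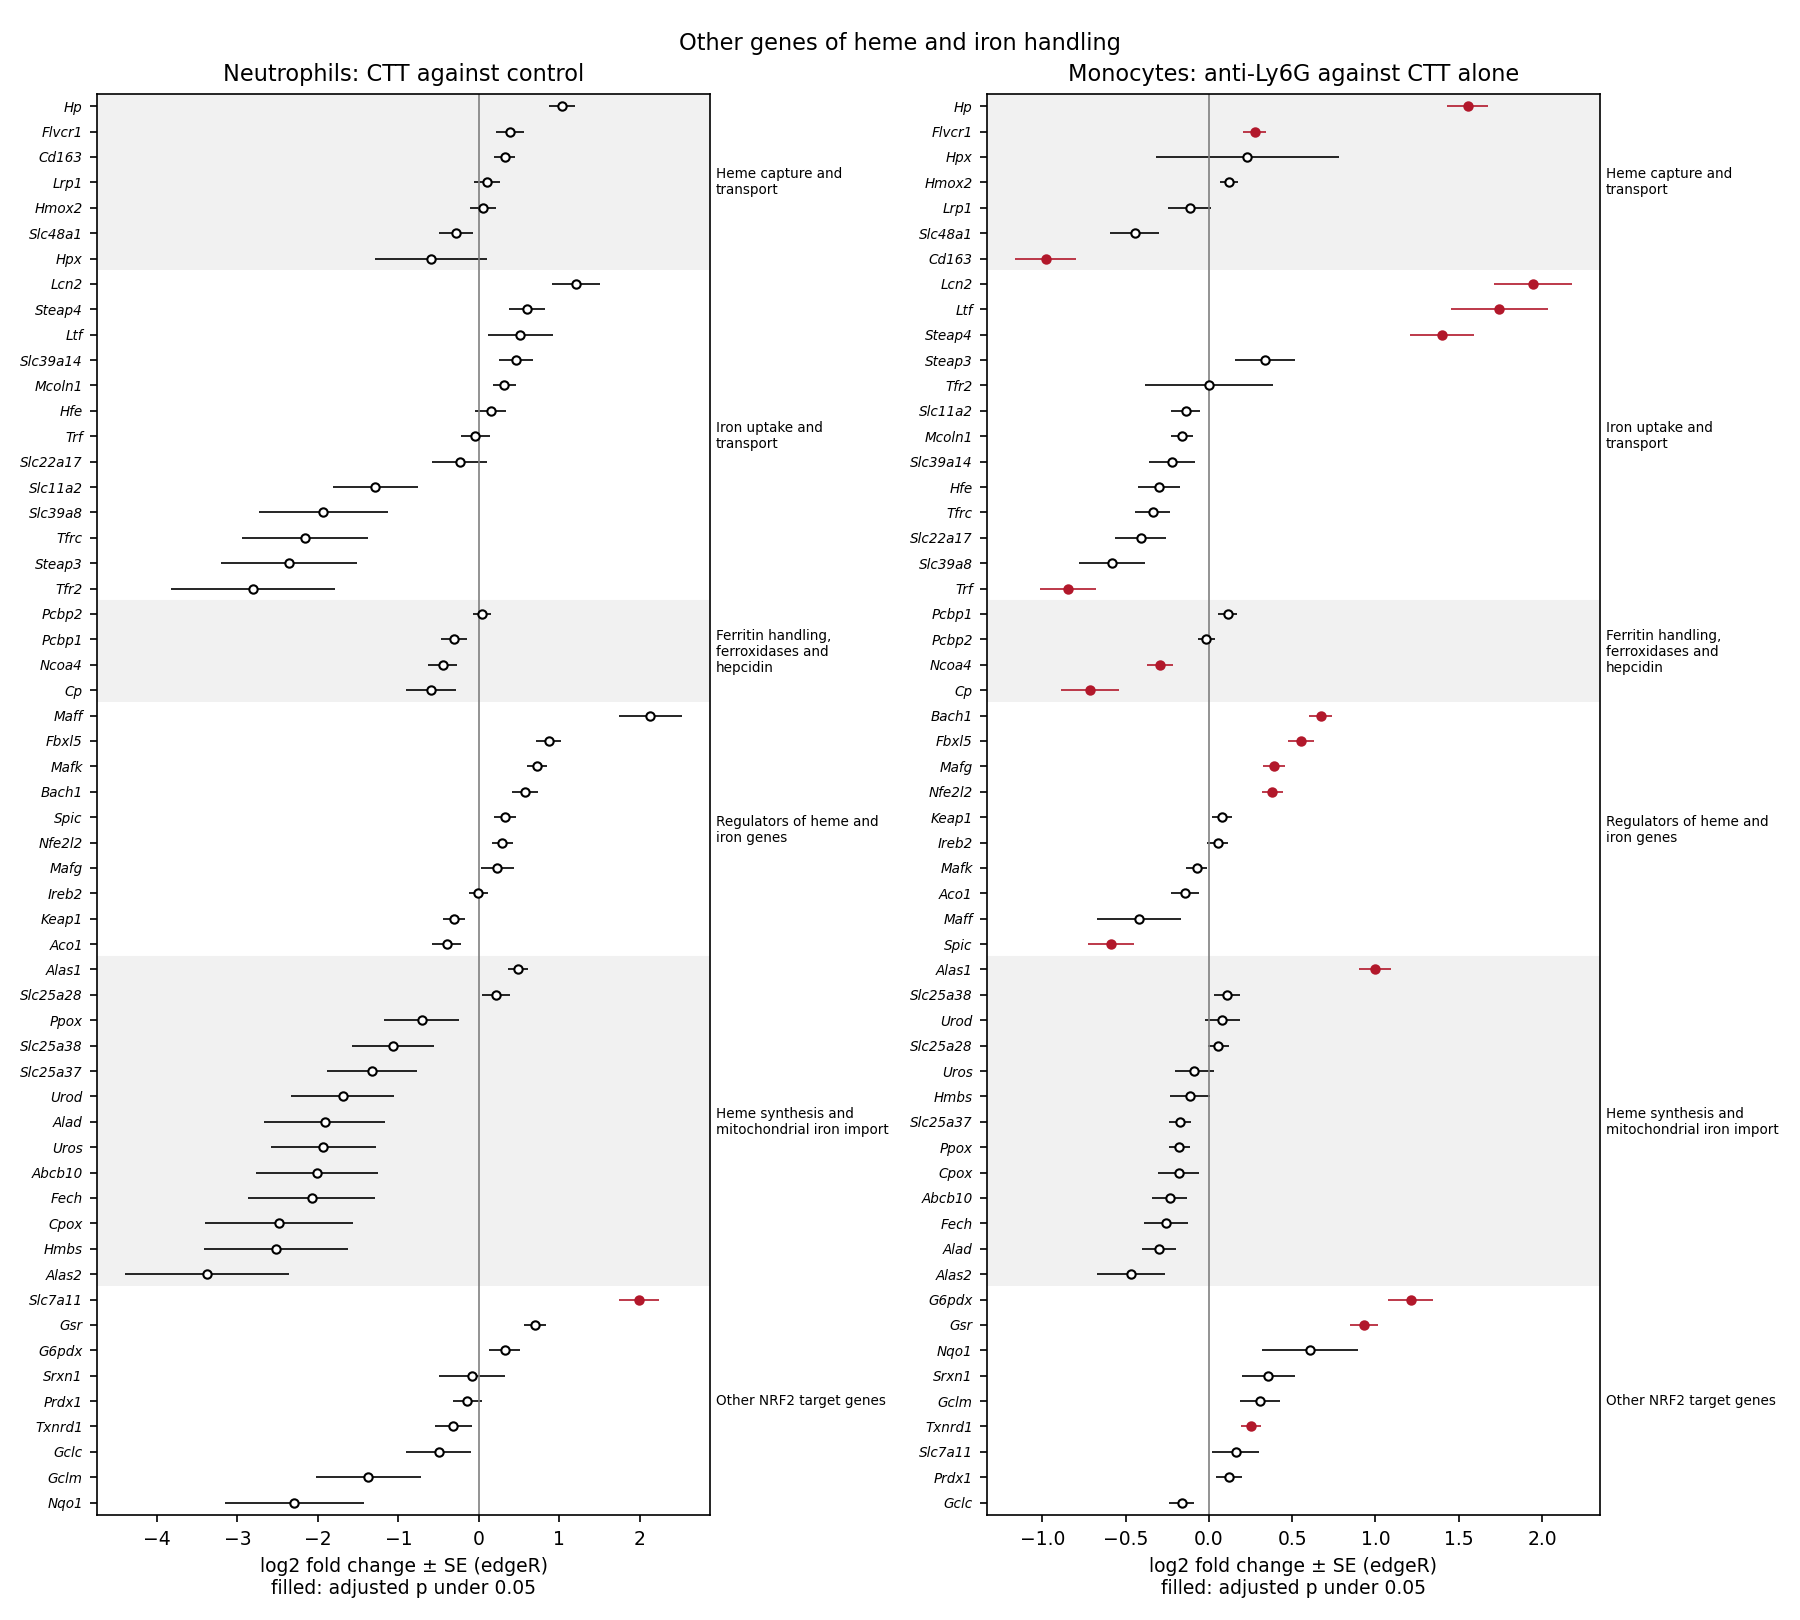
The log2 fold change ± SE (horizontal axis) of the other heme and iron genes (vertical axis, grouped by list) in neutrophils after CTT against control and in monocytes with anti-Ly6G against CTT alone, with filled red points for an edgeR adjusted p under 0.05. In neutrophils Slc7a11 is the only filled point, and in monocytes Lcn2, at 1.95, lies farthest to the right.

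Promoters could bear on genes that share BACH1 and NRF2 control. The antioxidant response element core TGACNNNGC was therefore searched on both strands in the 250 bases before each listed start of RefSeq promoters (GRCm38.p6). These starts need not be the gene starts given above. The Slc11a1 window, chr1:74374953-74375202, reached into the gene, and a further window of Blvrb and of Fth1 lay within its gene. Hmox1 and Slc40a1 had no entry among these promoters and were not searched. Of 5 members with an entry, Blvra held 1 match and Slc11a1, Blvrb, Fth1 and Ftl1 none in these windows. Of all 32851 windows, 10.2% held one. Known elements of such genes can lie farther upstream.

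The genes most alike in pattern were found by the root mean square difference of log2 CPM, centred over the 6 libraries of a table. Among the members, the pair with the smallest difference was Fth1 and Ftl1 in both tables, at 0.171 in neutrophils and 0.0728 in monocytes. Both chains also varied least of the members, and the measure is not scaled for a gene's own spread. The root mean square of Fth1 and Ftl1 around their own means was 0.219 and 0.231 in neutrophils. In monocytes it was 0.102 and 0.136, so a small difference does not show that these chains vary together more closely than other members. For Slc40a1 in monocytes the nearest of all tested genes were Slc16a7 (0.0364), Hap1 (0.0474) and Fmnl2 (0.0644). For Blvrb there they were Epb41l1 (0.0299), Serpinb6a (0.0366) and Lrp4 (0.0420).

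In neutrophils the same measure was taken for Blvrb and Blvra, which varied by more than 1 log2 unit. The nearest genes to Blvrb were Eng (0.0864), Fam210b (0.105) and Spc24 (0.109). The nearest to Blvra were Ksr2 (0.0425), Pafah2 (0.0479) and Abcb9 (0.0709).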

How the data were processed

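Per the labels' protocols, libraries were built with the VAHTS Universal V6 kit from total RNA extracted with TRIzol. HISAT2, HTSeq and build mm10 are named in the submitters' processing notes; their versions, the annotation and whether strand was used are not given in the sources here, and without strand the reads of a gene and its antisense partner cannot be told apart. For each cell type, the authors deposited 1 table of raw counts of reads in each gene. The deposited FPKM values equal the count divided by gene length and library total, and served for levels between genes and for alternatives.

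The members and gene lists were chosen with earlier results of these data known. Each table was fitted alone in R 4.3.3 with edgeR 4.0.16: filterByExpr kept 13058 of 16805 and 13294 of 16954 genes, followed by TMM scaling, the quasi-likelihood F test (two-sided) and Benjamini-Hochberg adjustment over all tested genes at 0.05. The SE is the absolute log2 fold change divided by the square root of F. List genes named are those past the threshold, otherwise the 2 of smallest p. Nearest genes are named for members past the threshold or with a range above 1 log2 unit; those of Slc11a1 are not reported here. The edgeR fit was tested on simulated data with the same spread for all genes and no outlying library. That test therefore does not cover a library such as control neutrophil replicate 1. With at least 30942849 counts in a library, the members' values are limited by the spread of the 3 replicates and not by depth. Alternatives used DESeq2 1.42.0 and limma 3.58.1, other scalings and filters, the replicate number as a block, and each library left out in turn. The number of value columns left out was 0.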

Additional observations from a re-analysis of the deposited data

How the results depend on the processing

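Of the 238 values that the alternatives gave for 14 member results, 219 kept their direction and side of the threshold, 9 lost a call, 2 gained one and 8 changed sign. Only Slc40a1 and Blvrb in monocytes had a call to lose. The call was lost in 6 of 17 alternatives for Slc40a1 and in 3 of 17 for Blvrb. In neutrophils DESeq2 called Hmox1 (0.54, adjusted p = 0.0169). The genes called higher and lower in neutrophils, 74 and 0 in edgeR, numbered 455 and 107 in DESeq2, and 0 to 257 and 0 to 31 in edgeR when 1 library was left out. With limma on log2(FPKM + 1) there were 8 higher, on log2(FPKM + 0.1) 26 and 1, and on log2(FPKM + 1) with a mean of at least 1 FPKM 49 and 1. In monocytes, with 1354 and 681 in edgeR, upper quartile scaling gave 1030 lower, DESeq2 1204 lower, log2(FPKM + 1) 883 and 322, log2(FPKM + 0.1) 362 lower, and leaving out 1 library 706 to 1687 and 177 to 1168. Slc40a1 missed the threshold in monocytes at −0.51 on both log2(FPKM + 1) (limma adjusted p = 0.0939) and log2(FPKM + 0.1) (0.0783), and Blvrb at −0.58 on the former (0.0599). With 1 library left out, the log2 fold changes in monocytes ranged from −0.65 to −0.35 for Slc40a1, −0.67 to −0.40 for Blvrb, −0.40 to −0.068 for Hmox1, −0.11 to 0.05 for Fth1, −0.19 to 0.05 for Ftl1, −0.25 to 0.02 for Blvra and −0.47 to −0.12 for Slc11a1. In neutrophils they ranged from −0.15 to 0.18 for Ftl1, −0.55 to 0.03 for Blvra, −0.30 to 0.12 for Slc40a1, 0.31 to 0.75 for Slc11a1, 0.49 to 0.63 for Hmox1, 0.18 to 0.44 for Fth1 and −1.77 to −0.48 for Blvrb. The sign changed without control replicate 1 for Ftl1 (0.18) and Blvra (0.027), without CTT neutrophil replicate 1 for Slc40a1 (0.12) and Ftl1 (0.095), without CTT monocyte replicate 1 for Fth1 (0.054), Ftl1 (0.046) and Blvra (0.019), and without anti-Ly6G replicate 3 for Fth1 (0.0027). The cause was not tested. Same-numbered libraries did not deviate together in every pair (correlations 0.18, 0.0063 and 0.17 in neutrophils and 0.039, −0.023 and 0.055 in monocytes), so the numbers were not taken as a pairing. Differently numbered libraries gave −0.21 to 0.14 in neutrophils and −0.074 to 0.032 in monocytes. The values 0.18 and 0.17 in neutrophils and 0.039 and 0.055 in monocytes lay above all of these. Whether the numbers mark pairs was not tested. With the replicate block, 4 genes were called higher and 1 lower in neutrophils and 1043 lower in monocytes, and Slc40a1 and Blvrb were still called there.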
